A study of Mus musculus with 10 samples.

Results

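Linked peptide hormone systems of the vessel wall were followed through 10 genes: the adrenomedullin genes Adm, Calcrl, Ramp2 and Ramp3, the endothelin genes Edn1, Ednrb and Ece1, the angiotensin-converting enzyme gene Ace, and the apelin genes Apln and Aplnr. The genes were chosen by name, as members of these systems, with earlier results of these data known, and the rule used no level or threshold. All 10 had a row among the 23284 gene symbols counted, and all 10 entered the tests, which covered 15371 genes.

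Adrenomedullin is a secreted peptide that relaxes vessels and tightens endothelial junctions, and mice that lack it or its receptor fail to form working lymphatics. Its receptor is the heptahelical protein CALCRL, which reaches the cell surface and gains its preference for adrenomedullin only when paired with a receptor activity-modifying protein, RAMP2 or RAMP3. Endothelin is made as a precursor that the protease ECE1 cleaves to its active form, which constricts vessels through EDNRA on muscle and acts through EDNRB on endothelium. Apelin binds APLNR, a receptor of growing blood vessels, and ACE cleaves angiotensin and bradykinin on the luminal surface of blood endothelium.

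RNA was sequenced from 3 sorted populations: lymph node LEC (LN-LEC, 4 libraries), the blood endothelium of the same kind of node (LN-BEC, 3 libraries) and LEC taken from diaphragm (D-LEC, 3 libraries), where LEC stands for lymphatic endothelial cell. All came from C57BL/6 (B6) mice aged 6 to 8 weeks. Inguinal, axillary, brachial, cervical and mesenteric nodes were combined, so LN-LEC and LN-BEC are averages over peripheral and mesenteric nodes. Cells bearing CD45 were depleted, and CD31-positive cells were sorted with (LEC) or without (BEC) podoplanin, each library being a pool of several animals. Levels are counts divided by a size factor for each library (normalized counts), and differences are log2 fold changes with standard errors and adjusted p-values from edgeR's quasi-likelihood test with Benjamini-Hochberg adjustment over all tested genes, called at an adjusted p under 0.05. Every log2 fold change is coded as LN-LEC minus D-LEC, LN-LEC minus LN-BEC or D-LEC minus LN-BEC, so that a negative value is lower in the first-named population.

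The libraries held 22429940 to 48906070 counted fragments, and 3 counts were worth 0.0613 to 0.134 CPM (counts scaled to the library total). The sorts matched their labels by defining markers: 6 lymphatic markers (Prox1, Lyve1, Pdpn, Flt4, Reln and Mmrn1) summed to 134735 to 151725 normalized counts in LN-LEC and 598942 to 622973 in D-LEC against 3239.6 to 10199 in LN-BEC. The 6 blood endothelial markers (Flt1, Nrp1, Vwf, Notch4, Plvap and Cd34) summed to 158207 to 168332 in LN-BEC, 17505 to 20436 in LN-LEC and 5969.5 to 7372 in D-LEC, with none of them at 0 in any population. Plvap made up most of the LN-LEC and D-LEC sums, with means of 17202 and 3832 against 38489 in LN-BEC. The next highest of these means in LN-LEC was 898, for Cd34, against 55540 in LN-BEC. D-LEC also carried muscle and mesothelial RNA. All 10 skeletal muscle markers and all 6 mesothelial markers were higher in D-LEC than in LN-LEC, summing to 1289 to 2073 and 717 to 2190.4 normalized counts against 33.3 to 51.8 and 30.5 to 82.4. In LN-BEC the sums were 98.6 to 116 and 26.8 to 146. In LN-LEC 6 of the muscle markers (Myh4, Myh1, Tnnc2, Myl1, Mb and Tnni2) had at most 3 counts in every library. The part of this RNA in the results below was not tested.

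Adm encodes the adrenomedullin precursor. The LN-LEC libraries held 1571, 1449.8, 1422.5 and 2068 normalized counts, the LN-BEC libraries 1180.0, 585.5 and 1132, and the D-LEC libraries 3519, 2893 and 5023. The order was D-LEC, LN-LEC, LN-BEC, and no library of one population overlapped another, though the LN-BEC libraries spread widely around replicate 2, the lowest of all 10. Adm was 2.30-fold higher in D-LEC than in LN-LEC (log2 fold change, LN-LEC minus D-LEC, -1.20, SE 0.27, edgeR adjusted p = 0.00552) and 3.94-fold higher in D-LEC than in LN-BEC (1.98, SE 0.30, edgeR adjusted p = 0.000525). Between the lymph node populations it did not pass the test: the difference was 0.77 on the log2 scale with a 95% interval of 0.14 to 1.41 (edgeR adjusted p = 0.0579), and it passed in 4 of 18 alternative settings, DESeq2 and limma-voom among them. As in any bulk measurement, fewer cells that express a gene and less RNA of it per cell cannot be told apart.

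Genes of the response to tissue digestion moved in the same direction as Adm between the lymphatic populations, whereas those of hypoxia were divided. Of 12 genes listed for both, 9 were higher in D-LEC than in LN-LEC and 2 were lower. The background in this comparison was 45.7% of tested genes called, 21.7% with more in D-LEC and 24.0% with less. The immediate early genes Fos, Fosb, Jun, Junb, Egr1, Atf3 and Dusp1 were all higher in D-LEC, and of the hypoxia genes Pgk1 and Egln3 were higher, Vegfa and Slc2a1 were lower and Bnip3 was not called. The list summed to 34445 to 84541 normalized counts in LN-LEC, 91708 to 159312 in LN-BEC and 240056 to 272150 in D-LEC, with none of its genes at 0. Immediate early genes made up most of these sums, which therefore say little of the hypoxia genes. In D-LEC the means were 91558 for Egr1 and 61556 for Jun, against 2691 for Slc2a1, the largest of the hypoxia genes there. Across populations the list and Adm were ordered differently: LN-BEC had a higher sum of the list than LN-LEC and less Adm. Within populations the sum and Adm went together in some libraries and apart in others: LN-LEC replicate 4 was highest in both and LN-BEC replicate 2 lowest in both, while D-LEC replicate 2 had the highest sum and the lowest Adm of its population. The part of this response in the Adm difference was not tested.

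Calcrl, the receptor, was highest in D-LEC. Normalized counts were 16815, 19799, 14692 and 15240.3 in LN-LEC, 17955, 15934 and 17115 in LN-BEC, and 31935, 29786 and 26673 in D-LEC. The lymph node populations overlapped completely, and every D-LEC library stood above every lymph node library. Calcrl was 1.75-fold higher in D-LEC than in LN-LEC (-0.80, SE 0.11, edgeR adjusted p = 3.66e-05) and 1.73-fold higher than in LN-BEC (0.79, SE 0.12, edgeR adjusted p = 8.26e-05). The difference between LN-LEC and LN-BEC was -0.02 with a 95% interval of -0.25 to 0.22 on the log2 scale (edgeR adjusted p = 0.932), an interval that leaves room only for changes smaller than those seen against D-LEC.

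Ramp2, the main RAMP of endothelium, had the flattest profile: its largest log2 fold change, -0.47, was the smallest such maximum among the 10 genes. Normalized counts were 17589, 16962, 21187 and 17885 in LN-LEC, 24447, 25188 and 27830.4 in LN-BEC, and 23535, 19391 and 23045 in D-LEC. LN-BEC was the highest population and its libraries lay above all others, while LN-LEC replicate 3 and D-LEC replicate 2 overlapped. The 1.39-fold difference of LN-BEC over LN-LEC passed the test (-0.47, SE 0.10, edgeR adjusted p = 0.00216). Neither the LN-LEC against D-LEC difference (-0.23, 95% interval -0.46 to -0.01, edgeR adjusted p = 0.079) nor that of D-LEC against LN-BEC (-0.24, 95% interval -0.48 to 0.0007, edgeR adjusted p = 0.0931) did. The first of these passed with DESeq2 (adjusted p = 0.0453) and without LN-LEC replicate 3 or without D-LEC replicate 2.

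Ramp3, the alternative partner of CALCRL, behaved differently. Normalized counts were 38.9, 44.4, 19.2 and 53.4 in LN-LEC, 1033, 1040.4 and 1050.3 in LN-BEC, and 223, 459 and 383 in D-LEC. The populations were fully separated, and the LN-BEC libraries were almost equal. Ramp3 was 25.6-fold lower in LN-LEC than in LN-BEC (-4.68, SE 0.30, edgeR adjusted p = 2.62e-07), 8.77-fold lower in LN-LEC than in D-LEC (-3.13, SE 0.30, edgeR adjusted p = 6.19e-06) and 2.92-fold lower in D-LEC than in LN-BEC (-1.55, SE 0.27, edgeR adjusted p = 0.000723). Of its 1221 exon bases, 88 (7.21%) also belong to the predicted gene Gm11978, and fragments that overlap both genes were left out by the counter.

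The balance of the 2 RAMPs was compared per exon length, as the share of Ramp3 in the summed TPM (transcripts scaled to gene length and library total) of Ramp2 and Ramp3 within each library. Ramp3 made up 0.156% ± 0.065 in LN-LEC (SD, n = 4), 1.17% ± 0.49 in D-LEC (SD, n = 3) and 2.81% ± 0.16 in LN-BEC (SD, n = 3). No share of one population overlapped another, and Ramp2 transcripts were the large majority in all 10 libraries. Both RAMPs together outnumbered Calcrl per length by a factor of 8.51 ± 0.78 in LN-BEC (SD, n = 3), 6.15 ± 1.33 in LN-LEC (SD, n = 4) and 4.13 ± 0.58 in D-LEC (SD, n = 3).

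**Figure D1:**
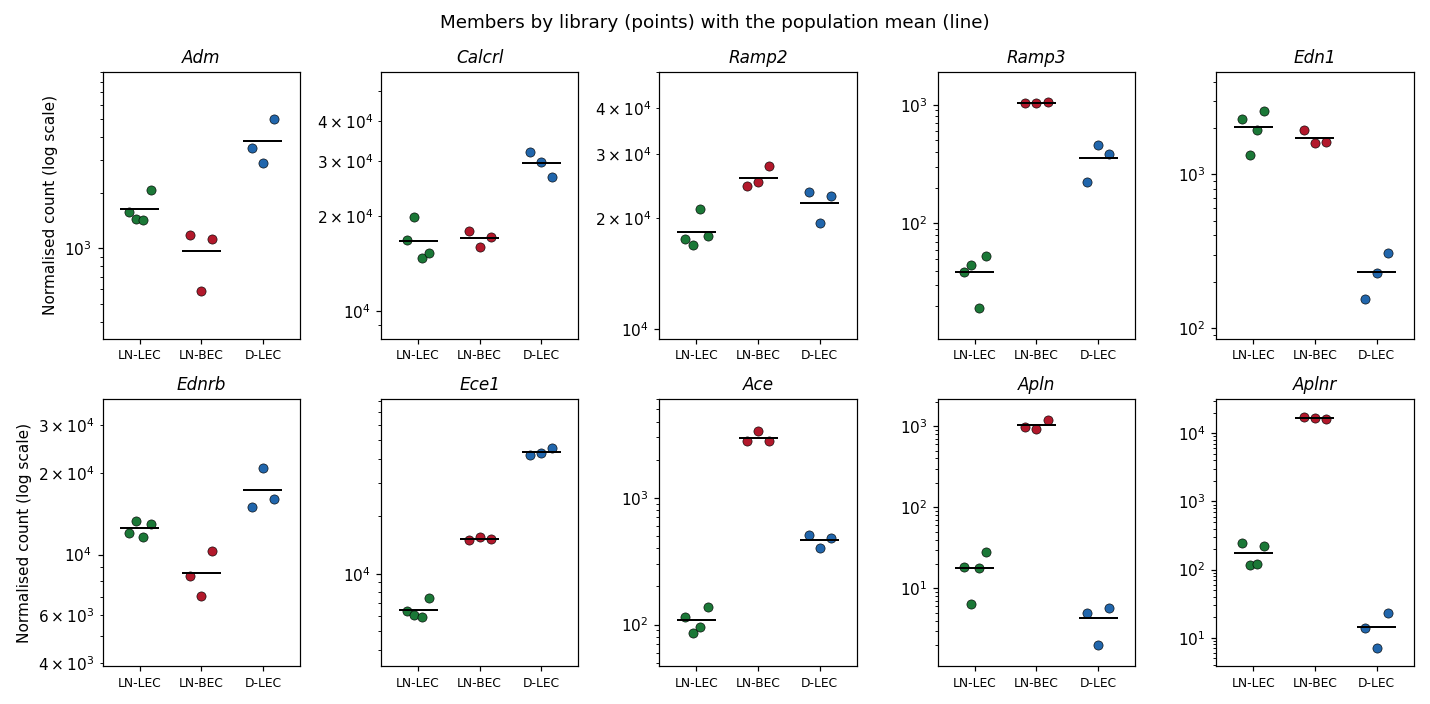
Normalized count of each gene (y axis, log scale) in every library of LN-LEC (4), LN-BEC (3) and D-LEC (3), with points for libraries and a line for the population mean. Ace, Apln, Aplnr and Ramp3 are highest in LN-BEC, Ece1, Adm and Calcrl in D-LEC, and Edn1 is high in both lymph node populations and low in D-LEC.

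Edn1 encodes preproendothelin. Normalized counts were 2301, 1330.4, 1935 and 2571 in LN-LEC, 1928, 1599.9 and 1621 in LN-BEC, and 154, 229 and 309 in D-LEC. Lymph node lymphatic and blood endothelium overlapped, and each D-LEC library lay far below both. Edn1 was 8.85-fold lower in D-LEC than in LN-LEC (3.15, SE 0.29, edgeR adjusted p = 1.21e-05) and 7.37-fold lower than in LN-BEC (-2.88, SE 0.29, edgeR adjusted p = 2.38e-05), while the lymph node populations differed by 0.26 on the log2 scale with a 95% interval of -0.30 to 0.82 (edgeR adjusted p = 0.454).

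The constrictor and the dilator ligand were thus ordered oppositely between the lymphatic populations. Per length, Edn1 made up 52.2% ± 8.4 of the summed TPM of Edn1 and Adm in LN-BEC (SD, n = 3), 42.0% ± 4.9 in LN-LEC (SD, n = 4) and 3.49% ± 0.98 in D-LEC (SD, n = 3). The lymph node populations overlapped in this share, and the highest D-LEC library was at 4.46%, below the lowest LN-LEC library at 35.1%.

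Ednrb, the endothelial endothelin receptor, was expressed in all populations. Normalized counts were 12033, 13306, 11599 and 13013 in LN-LEC, 8348, 7013 and 10295 in LN-BEC, and 14963, 20746 and 15992 in D-LEC. Both lymphatic populations stood above LN-BEC without overlap. Ednrb was 1.48-fold higher in LN-LEC compared with LN-BEC (0.56, SE 0.14, edgeR adjusted p = 0.00546) and 2.01-fold higher in D-LEC than in LN-BEC (1.01, SE 0.15, edgeR adjusted p = 7.82e-05). The 1.36-fold difference between the lymphatic populations was smaller (-0.44, SE 0.14, edgeR adjusted p = 0.0168) and did not pass without D-LEC replicate 2, the highest library (-0.29, edgeR adjusted p = 0.0904).

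Ece1, the activating protease of endothelin, was highest in D-LEC and lowest in LN-LEC. Normalized counts were 6415, 6094, 5934 and 7484 in LN-LEC, 15039.8, 15509 and 15146 in LN-BEC, and 41703, 42797 and 45609.8 in D-LEC. The steps between populations were many times the spread within them. Ece1 was 6.59-fold higher in D-LEC than in LN-LEC (-2.72, SE 0.10, edgeR adjusted p = 7.35e-11), 2.84-fold higher in D-LEC than in LN-BEC (1.504, SE 0.10, edgeR adjusted p = 3.39e-08) and 2.32-fold lower in LN-LEC compared with LN-BEC (-1.22, SE 0.09, edgeR adjusted p = 1.6e-07). D-LEC therefore held the most transcript of the processing enzyme and the least of its substrate. RefSeq gives Ece1 several start sites, which the counts add together.

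Ace, the angiotensin-converting enzyme, was a gene of LN-BEC with an intermediate level in D-LEC. Normalized counts were 114, 85.1, 95 and 136 in LN-LEC, 2818, 3338 and 2818 in LN-BEC, and 507, 399 and 478 in D-LEC. All 3 populations were separate. Ace was 27.1-fold lower in LN-LEC than in LN-BEC (-4.76, SE 0.15, edgeR adjusted p = 5.83e-11), 4.15-fold lower in LN-LEC than in D-LEC (-2.05, SE 0.15, edgeR adjusted p = 7.38e-08) and 6.52-fold lower in D-LEC than in LN-BEC (-2.70, SE 0.15, edgeR adjusted p = 4.44e-09).

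Apln, the apelin precursor, was high in LN-BEC and close to the floor of detection in D-LEC. Normalized counts were 977, 912 and 1194 in LN-BEC, 18.1, 6.3, 18.1 and 28.3 in LN-LEC, and 5.0, 2.0 and 5.8 in D-LEC. LN-LEC replicate 2 lay just above the highest D-LEC library, so that the lymphatic populations were separated by little. Apln was 53.2-fold lower in LN-LEC than in LN-BEC (-5.73, SE 0.28, edgeR adjusted p = 6.69e-09) and 4.36-fold lower in D-LEC than in LN-LEC (2.12, SE 0.48, edgeR adjusted p = 0.0031). Against D-LEC the LN-BEC level was 237 times higher, with a 95% counting interval of 139 to 446, since all D-LEC libraries together held 13 fragments of Apln. This interval covers counting error only.

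Aplnr, the apelin receptor, followed its ligand with a wider range. Normalized counts were 17513, 16878 and 16287 in LN-BEC, 246, 118, 119.9 and 223 in LN-LEC, and 13.9, 7.0 and 23.1 in D-LEC. The populations did not overlap, and the LN-LEC libraries fell into a higher pair (replicates 1 and 4) and a lower pair (replicates 2 and 3). Aplnr was 93.7-fold lower in LN-LEC than in LN-BEC (-6.55, SE 0.32, edgeR adjusted p = 1.84e-07) and 11.8-fold lower in D-LEC than in LN-LEC (3.56, SE 0.41, edgeR adjusted p = 8.65e-05). The LN-BEC level was 1102 times that of D-LEC, with a 95% counting interval of 826 to 1505 from 46 fragments in D-LEC (log2 fold change -10.11, SE 0.45, edgeR adjusted p = 6.83e-08).

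Ramp2, Ramp3, Ace, Apln and Aplnr had their highest mean in LN-BEC, the last 4 by more than 2-fold over both lymphatic populations. The low levels of these 4 genes in the lymphatic libraries were set beside those of blood endothelial markers. In LN-LEC, Aplnr stood at 1.05% ± 0.40 of its LN-BEC mean, Apln at 1.72% ± 0.87, Ace at 3.60% ± 0.76 and Ramp3 at 3.75% ± 1.39 (SD, n = 4). Flt1, Nrp1, Cd34, Vwf and Notch4 stood at 1.35%, 1.48%, 1.62%, 1.997% and 2.27% on the same scale, and Plvap, a fenestral diaphragm protein, at 44.7%. The mean of Aplnr in LN-LEC was below that of all 6 markers, that of Apln was above 3 and below 3, and those of Ace and Ramp3 were above 5 of the 6. The 5 listed genes of high endothelial venules summed to 76653 to 105249 normalized counts in LN-LEC against 2178690 to 2946580 in LN-BEC. Most of these sums was Glycam1, with means of 72736 in LN-LEC and 2427460 in LN-BEC. The other means were 36.1 and 4067 for Chst4, 56.9 and 5058 for Fut7, 10940 and 36629 for Gcnt1, and 11864 and 76561 for Enpp2. By library, the median of the 6 blood endothelial markers was 2.01%, 1.38%, 1.33% and 2.58% in LN-LEC replicates 1 to 4. In the same order Aplnr stood at 1.46%, 0.699%, 0.71% and 1.32%, and Apln at 1.77%, 0.618%, 1.76% and 2.75%. Ace stood at 3.81%, 2.84%, 3.18% and 4.56%, and Ramp3 at 3.73%, 4.27%, 1.85% and 5.13%. The part of blood endothelial RNA in these LN-LEC levels was not tested.

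In D-LEC the 4 genes divided. Aplnr stood at 0.0869% ± 0.048 and Apln at 0.416% ± 0.195 of the LN-BEC mean, beside Nrp1 at 0.233% and Flt1 at 0.417% (SD, n = 3). Ace stood at 15.4% ± 1.9 and Ramp3 at 34.1% ± 11.6, above all 6 blood markers, of which Plvap was the highest at 9.96%. The lowest Ramp3 library in D-LEC was at 21.4%.

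**Figure D2:**
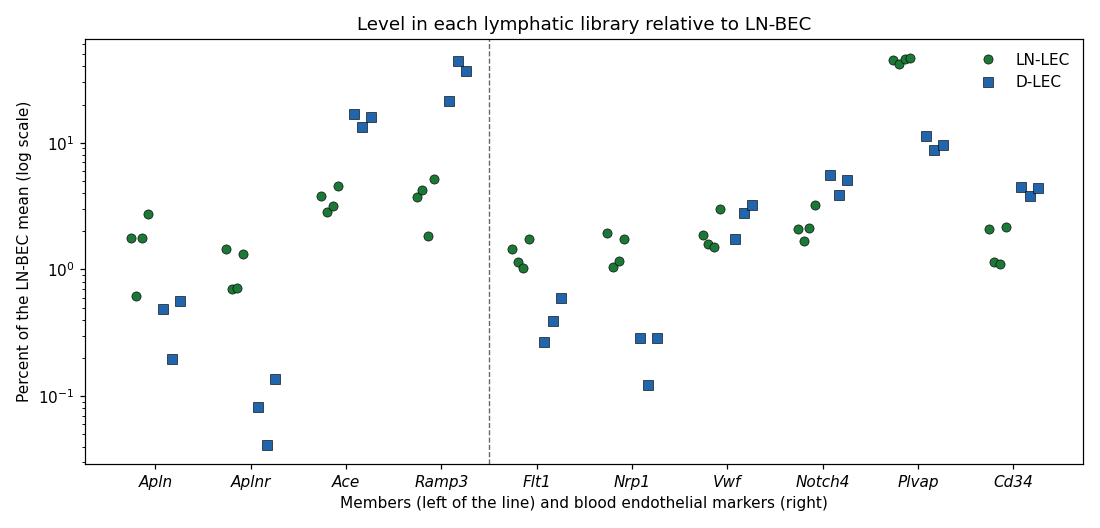
Level of Apln, Aplnr, Ace and Ramp3 (left of the dashed line) and of 6 blood endothelial markers (right) in each lymphatic library, as a percent of the LN-BEC mean (y axis, log scale), with circles for the 4 LN-LEC and squares for the 3 D-LEC libraries. In D-LEC, Ace and Ramp3 lie above every marker, Apln lies with Flt1 and Nrp1, and the mean of Aplnr is below those of all 6 markers. In LN-LEC Apln and Aplnr lie among the low markers.

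Promoter sequence is shown for Ramp3, Ace and Apln, because each was more than 2-fold higher in LN-BEC than in both lymphatic populations. RefSeq's table of start sites held windows for 8 of the 10 members and none for Aplnr and Ramp2. Each window is the 250 bases before the annotated start, 5′ to 3′ on the gene's strand, in the GRCm38.p6 build, and capitals mark GGAA or its reverse complement TTCC, the core that ETS factors of endothelium bind. The windows are chr11:6658283-6658532 (plus strand) for Ramp3, chr11:105967698-105967947 (plus strand) for the upstream start of Ace, and chrX:48034854-48035103 (minus strand) for Apln.
Ramp3: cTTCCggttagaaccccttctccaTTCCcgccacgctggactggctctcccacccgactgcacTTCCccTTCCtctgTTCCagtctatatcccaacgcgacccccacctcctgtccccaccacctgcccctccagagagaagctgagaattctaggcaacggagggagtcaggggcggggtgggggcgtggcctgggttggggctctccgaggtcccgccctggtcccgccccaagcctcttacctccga
Ace: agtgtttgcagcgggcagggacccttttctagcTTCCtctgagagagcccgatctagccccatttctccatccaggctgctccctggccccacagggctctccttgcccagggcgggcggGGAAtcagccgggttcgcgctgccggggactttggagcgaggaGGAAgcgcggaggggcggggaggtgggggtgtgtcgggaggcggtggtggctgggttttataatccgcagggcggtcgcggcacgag
Apln: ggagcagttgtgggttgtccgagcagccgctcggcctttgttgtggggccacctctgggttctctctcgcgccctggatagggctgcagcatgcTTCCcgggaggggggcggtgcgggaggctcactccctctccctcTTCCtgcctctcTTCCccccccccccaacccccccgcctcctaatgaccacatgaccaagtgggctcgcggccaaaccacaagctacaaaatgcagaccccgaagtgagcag
Ramp3 held 5 matches on both strands together, and Ace and Apln held 3 each. The core is short, and 93.45% of the 32851 windows of all genes held at least 1 match. Across the 12 windows of 8 members, the windows of Adm, Calcrl, Edn1 and Ednrb held 2 or 3 matches, whereas 2 of the 4 Ece1 windows and the downstream Ace window held none. The hypoxia response core ACGTG, or CACGT on the other strand, was found in 16.57% of all windows and among the members only in the Ece1 window at chr4:137913308-137913557, where both matches overlap in 1 palindrome. A match in such a window describes its letters and was not tested for binding.

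Levels of different genes were ordered only within a population, as TPM. TPM means were not compared between populations, since each is a share of its library's total. The high endothelial venule gene Glycam1 alone held 205139 TPM in LN-BEC, against 8822 in LN-LEC and 46.0 in D-LEC. Ramp2 was first in all 3 populations, at 2109.8 ± 253 TPM in D-LEC (SD, n = 3), 1599.99 ± 225 in LN-LEC (SD, n = 4) and 1532 ± 160 in LN-BEC (SD, n = 3), above 99.7% of tested genes in each. In LN-LEC, Calcrl (267 TPM) came next and was above Ednrb (234 TPM) in 3 of 4 libraries. Ece1 (101 TPM), Adm (88.2 TPM) and Edn1 (64.9 TPM) followed in this order in all 4. The other 4 genes lay between 0.414 and 3.71 mean TPM: Aplnr was above Ramp3 in 3 of 4 libraries, Ramp3 above Ace in 3 of 4, and Apln was last in all 4.

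In LN-BEC the second gene was Aplnr (248 TPM), and Calcrl (187 TPM), Ece1 (165 TPM) and Ednrb (108 TPM) followed in this order in all 3 libraries. Ramp3 (44.4 TPM) was above Edn1 (38.4 TPM) in all 3. Adm (35.9 TPM) had no fixed place, being below Edn1 in 1 of 3 libraries and above Ace (30.7 TPM) in 2 of 3, and Apln was last at 16.8 TPM. In D-LEC the order of the leading genes was Ramp2, Ece1 (753 TPM), Calcrl (519.6 TPM), Ednrb (356 TPM) and Adm (231 TPM), the same in all 3 libraries. Ramp3 (24.2 TPM) came next, Edn1 (8.23 TPM) was above Ace (7.56 TPM) in 2 of 3, and Aplnr (0.346 TPM) and Apln (0.114 TPM) closed the order.

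**Figure D3:**
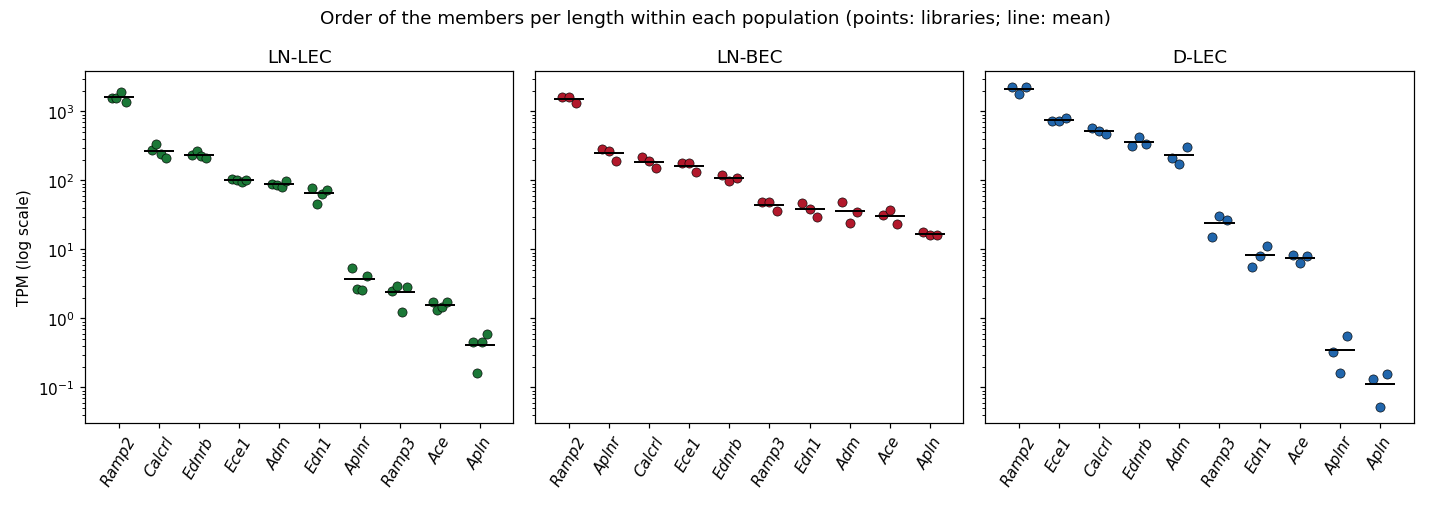
TPM (transcript level per gene length; y axis, log scale) of the 10 genes in each library (points) with the population mean (line) in order within each population. Ramp2 leads every population with means of 1532 to 2109.8 TPM, Ece1 moves to the second place in D-LEC, and Aplnr moves from near the bottom in both lymphatic populations to the second place in LN-BEC.

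Counted together, 9 of the 10 genes were called between LN-LEC and D-LEC, where 45.7% of all tested genes were called. Edn1, Apln and Aplnr were higher in LN-LEC, a direction called for 24.0% of all genes, and Adm, Calcrl, Ramp3, Ednrb, Ece1 and Ace were higher in D-LEC, against 21.7%. Between LN-LEC and LN-BEC 7 were called, with a background of 38.2%: Ednrb was higher in LN-LEC (19.8% of all genes), and LN-BEC had more Ramp2, Ramp3, Ece1, Ace, Apln and Aplnr (18.4%). Between D-LEC and LN-BEC 9 were called, with a background of 48.0%: Adm, Calcrl, Ednrb and Ece1 were higher in D-LEC (22.4%), and Ramp3, Edn1, Ace, Apln and Aplnr were higher in LN-BEC (25.6%). The 3 comparisons share libraries and are not independent of each other.

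Differences of at least 5-fold were called for 4 genes in each comparison, against 12.1%, 9.82% and 15.2% of all genes in the order above. Libraries did not overlap for 9, 8 and 10 genes (the exceptions were Ramp2 in the first comparison and Calcrl and Edn1 in the second), where 50.0%, 44.9% and 56.0% of all genes did not overlap. The median absolute log2 fold change of the 10 genes was 2.09, 0.99 and 1.76, against 0.51, 0.43 and 0.57 over all tested genes. These genes are vessel genes picked by name, so the counts describe this list and were not compared with other lists of vessel genes.

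**Figure D4:**
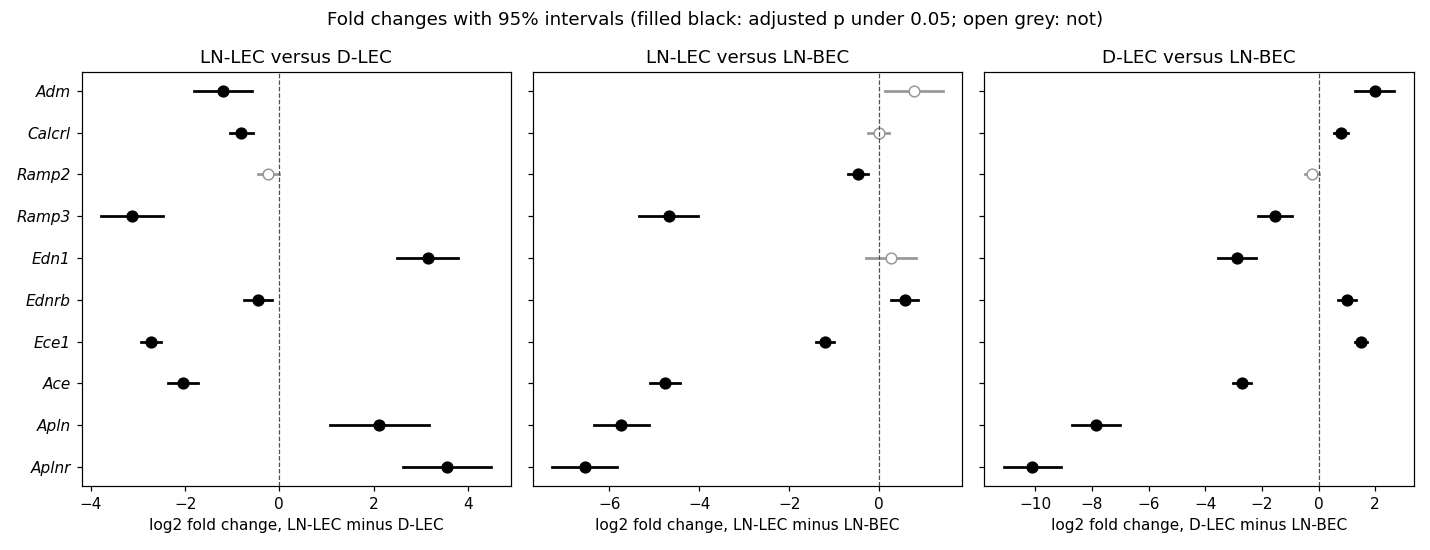
Log2 fold change (x axis) of the 10 genes in the 3 comparisons with its 95% interval, filled black where the adjusted p was under 0.05 and open grey where it was not. The widest changes are those of Aplnr and Apln against LN-BEC, at -10.11 and -7.86 for D-LEC, and the intervals of Calcrl and Edn1 include 0 between LN-LEC and LN-BEC.

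The other genes of the adrenomedullin and calcitonin gene-related peptide (CGRP) family were read as a list of 11, of which 10 were tested. Of all tested genes, 45.7%, 38.2% and 48.0% were called in the 3 comparisons, in the order above. In LN-LEC against D-LEC, 4 were higher in LN-LEC, 3 were higher in D-LEC and 3 were not called, with a median log2 fold change of 0.22 against 0.03 over all genes. In LN-LEC against LN-BEC 5 were higher in LN-LEC, 0 were higher in LN-BEC and 5 were not called (median 1.20 against -0.01), and in D-LEC against LN-BEC 5 were higher in D-LEC and 2 in LN-BEC (median 0.21 against -0.05).

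Adm2, or intermedin, a second ligand of the CALCRL receptors, was a gene of LN-LEC, at 112 ± 7.8 normalized counts (SD, n = 4) against 3.65 ± 3.05 in LN-BEC (SD, n = 3) and 1.26 ± 2.18 in D-LEC (SD, n = 3). It passed the test against both (4.89, SE 0.61, edgeR adjusted p = 1.86e-05 and 6.62, SE 0.73, edgeR adjusted p = 5.52e-06), in the opposite direction to Adm between the lymphatic populations. Ramp1, which turns CALCRL into a CGRP receptor, was low everywhere but highest in LN-LEC, with 43.6 ± 12.1 (SD, n = 4) against 12.8 ± 7.4 in LN-BEC and 2.39 ± 0.69 in D-LEC (SD, n = 3). Calcb, which encodes a CGRP, had no fragment in any of the 7 lymph node libraries and 32.6 ± 11.1 normalized counts in D-LEC (SD, n = 3), at least 43.9-fold higher than LN-LEC and 35.4-fold higher than LN-BEC when these are set to 3 counts over the population. Calca stayed below the filter and was not tested. Muscle and mesothelial markers were also raised in D-LEC, as given above, and their part in the Calcb level was not tested.

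Another receptor of the peptide and a receptor once linked to it differed between the lymphatic populations. Ackr3, listed under its older symbol Cxcr7, a scavenger of adrenomedullin and of CXCL12, reached 11937 ± 1747 normalized counts in D-LEC (SD, n = 3) against 2071 ± 625.4 in LN-LEC (SD, n = 4) and 1565 ± 363 in LN-BEC (SD, n = 3). It was higher in D-LEC than in LN-LEC (-2.50, SE 0.25, edgeR adjusted p = 2.32e-05) and LN-BEC (2.93, SE 0.28, edgeR adjusted p = 1.6e-05). Gpr182, an orphan-named receptor of endothelium once assigned to adrenomedullin, was instead highest in LN-LEC, at 1044 ± 278 (SD, n = 4) against 367 ± 50.7 and 292 ± 99.5 in LN-BEC and D-LEC (SD, n = 3). Its difference from D-LEC was 1.85 (SE 0.28, edgeR adjusted p = 0.000295) and from LN-BEC 1.52 (SE 0.27, edgeR adjusted p = 0.0011).

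Genes that finish or degrade the peptide also differed. Pam, the enzyme that amidates adrenomedullin, was 6161 ± 690 in D-LEC (SD, n = 3), above 4321 ± 377 in LN-LEC (SD, n = 4; -0.49, SE 0.10, edgeR adjusted p = 0.00127). Mme, neprilysin, a protease that degrades many peptides including those of all 3 systems, was a gene of LN-LEC, with 338 ± 78.5 normalized counts (SD, n = 4) against 41.1 ± 12.6 in LN-BEC and 3.83 ± 4.34 in D-LEC (SD, n = 3), and passed in every comparison (edgeR adjusted p = 1.74e-07 against D-LEC and 1.41e-05 against LN-BEC).

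Of 8 further endothelin genes, 7 were tested. The comparison of the LEC populations called 2 higher in LN-LEC and 1 in D-LEC, that of LN-LEC with LN-BEC called 1 and 2, and that of D-LEC with LN-BEC called 1 and 3. The shares of all tested genes called were 45.7%, 38.2% and 48.0%. Edn3, a ligand with preference for EDNRB, was found in D-LEC, at 28.9 ± 12.2 normalized counts (SD, n = 3), against 0.317 and 0.584 in LN-LEC and LN-BEC, and passed against both (-6.25, SE 0.97, edgeR adjusted p = 0.000121 and 5.31, SE 0.96, edgeR adjusted p = 0.000425). Ednra, the receptor of vascular muscle and pericytes, was highest in LN-BEC, at 304 ± 57.3 (SD, n = 3) against 63.2 ± 22.6 in LN-LEC (SD, n = 4) and 29.1 ± 17.4 in D-LEC (SD, n = 3). Of 10 markers of fibroblasts and pericytes, LN-BEC had more of 4 relative to LN-LEC and less of 1 (Kcnj8), and 5 were not called. Mean normalized counts in LN-BEC, LN-LEC and D-LEC were 339, 91.3 and 34.7 for Pdgfrb and 50.9, 2.99 and 3.52 for Cspg4. They were 872, 213 and 85.0 for Acta2, 479, 124 and 16.8 for Myh11, and 151, 516 and 840 for Kcnj8. The list summed to 6545.7 to 9922 normalized counts in LN-BEC, 4483 to 8282 in LN-LEC and 2045 to 4521 in D-LEC with no marker at 0. The largest part of the node sums was Rgs5, which was not called between these populations (means of 4393 and 3856). The part of such cells in the Ednra level was not tested.

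Ece2, the other endothelin-converting enzyme gene, was not called in any comparison, with 213 ± 33.1 normalized counts in LN-BEC (SD, n = 3), 189 ± 43.3 in D-LEC (SD, n = 3) and 182 ± 18.4 in LN-LEC (SD, n = 4). Between the lymphatic populations its log2 fold change was -0.02 (SE 0.18, edgeR adjusted p = 0.937), beside -2.72 for Ece1, and the difference between these genes was not tested.

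The apelin list added 4 genes, of which 3 were tested, Mme and Furin among them. Apela, the second ligand of APLNR, listed under the symbol Gm10664, is a predicted symbol and was not tested, and its mean normalized counts were 2.98 in LN-BEC, 0.641 in LN-LEC and 0 in D-LEC. Furin, the proprotein convertase that can cut the precursors of both apelin and endothelin, was 1849 ± 134 in LN-BEC (SD, n = 3) and 1323 ± 64.8 in LN-LEC (SD, n = 4; -0.47, SE 0.10, edgeR adjusted p = 0.00155).

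Of 16 genes of the renin-angiotensin and kinin systems, 14 were tested. The comparison of the LEC populations called 4 higher in LN-LEC and 3 in D-LEC, that of the node populations called 3 each way, and that of D-LEC with LN-BEC called 5 each way. The shares of all tested genes called were 45.7%, 38.2% and 48.0%. Ren1 and Agtr1b had no fragment in any library. Agtr1a, the main angiotensin receptor, was highest in the population that was also highest in Ace, with 142 ± 13.6 normalized counts in LN-BEC (SD, n = 3) against 14.8 ± 8.0 in LN-LEC (SD, n = 4; -3.21, SE 0.50, edgeR adjusted p = 0.000174) and 36.8 ± 22.5 in D-LEC (SD, n = 3; -1.96, SE 0.51, edgeR adjusted p = 0.00664). LN-BEC also had more of 4 fibroblast and pericyte markers than LN-LEC and less of 1, as given above. The part of such cells in the Agtr1a level was not tested. Enpep, the aminopeptidase that removes angiotensin, was highest in LN-LEC, at 917 ± 155 in LN-LEC (SD, n = 4) against 497 ± 60.3 in LN-BEC and 23.2 ± 3.7 in D-LEC (SD, n = 3). Kininogen gene Kng2, a source of bradykinin, was seen in D-LEC, at 72.1 ± 23.9 (SD, n = 3) against 3.38 and 3.15 in LN-LEC and LN-BEC.

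For each member the 3 tested genes with the most similar profile were listed, by Pearson's correlation of log2 CPM over the 10 libraries. The libraries form 3 populations, so a high value mainly reflects the same order of the population means. The genes nearest to Ramp3 were Ebf1 (0.991), Tcf4 (0.990) and Maml3 (0.988), transcriptional regulators highest in LN-BEC and intermediate in D-LEC. Those nearest to Aplnr were Nrp1 (0.998), Mcf2l (0.998) and Ly6c1 (0.997), and those nearest to Apln were Ly6a, Tinagl1 and C1qtnf9. Ace was closest to St8sia4, Ppap2b and Cyp2d22, and Ece1 to Hmgn5, Clca5 and Cd2. Cd2, a lymphocyte gene, had a mean of 1807 normalized counts in D-LEC against 122 in LN-BEC and 12.9 in LN-LEC. The 10 leukocyte markers summed to 492 to 853 normalized counts in D-LEC, 1065 to 1321 in LN-BEC and 325 to 423 in LN-LEC, and their part in the Cd2 level was not tested.

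The nearest genes of Edn1 were Bnip3l, Erap1 and H2-Q8, each lower in D-LEC. Adm was closest to Tmem158, Pkhd1l1 and Serping1, and Ednrb to Adamts5, Usp2 and Slc7a1. The least distinct profiles, those of Calcrl and Ramp2, had Cep170 (0.979) and Zc3hc1 (0.960) as their nearest genes.

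In the mm9 build of the counts, Calcrl (chr2:84170783-84265423, minus strand) and Aplnr (chr2:84976517-84980080, plus strand) lie on chromosome 2. They differed in direction between D-LEC and LN-BEC. Ramp2 (chr11:101107648-101109564), Ramp3 (chr11:6558536-6577478) and Ace (chr11:105829259-105851278), all on the plus strand, lie on chromosome 11. Adm is at chr7:117771183-117773333 (plus), Edn1 at chr13:42396639-42403358 (plus), Ednrb at chr14:104213842-104243390 (minus), Ece1 at chr4:137418152-137521144 (plus) and Apln at chrX:45378323-45388029 (minus). Apart from Ramp3, no member shared exon bases with another gene of the annotation.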

How the data were processed

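RNA of 10 libraries was amplified, sequenced as read pairs and, per the file headers and the submitters' processing notes, aligned by the authors to mm9 with STAR and counted by gene symbol over annotated exons with featureCounts 1.4.4. The deposited values are raw counts of fragments per gene, counted without strand, with no normalization. Reads shared between genes and the amplification of RNA can therefore affect single levels. Replicates were numbered in accession order, and no batch was labelled.

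Symbols of predicted genes and clones (3758) were left out, and a gene was tested if its normalized counts averaged at least 1 in at least 1 population (15371 genes). The test was edgeR's (version 4.0.16, R version 4.3.3; TMM factors and a robust quasi-likelihood fit to all 10 libraries). Normalized counts used DESeq2 1.42.0 size factors, and TPM used the deposited exon lengths. Intervals are at 95%. The named genes were the 10 members, the pathway and marker lists, and the 3 most similar genes of each member. Members and lists were chosen with earlier results of these data known. On simulated data, edgeR recovered 76% to 78% of 2-fold and 98% to 100% of 8-fold changes, over the 3 comparisons, at an adjusted p under 0.05. The changed genes were raised in the first-named population and excluded genes of low mean count, so these rates do not cover levels near the floor. Alternatives were DESeq2, limma-voom (limma 3.58.1), other size factors, filters and symbols, and fits without single libraries. P-values measure the spread between pools of animals. Promoter windows came from RefSeq and figures from matplotlib 3.10.9.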

Additional observations from a re-analysis of the deposited data

How the results depend on the processing

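The 30 differences (10 genes in 3 comparisons) were recomputed under 18 alternatives. Of the 540 values 528 kept their direction and their side of an adjusted p of 0.05, 1 lost its call and 7 gained one. Another 4 changed sign, all of the uncalled Calcrl difference between LN-LEC and LN-BEC (-0.016): 0.038 without LN-LEC replicate 3, 0.023 without LN-LEC replicate 4, 0.026 without LN-BEC replicate 1 and 0.032 without LN-BEC replicate 3 and LN-LEC replicate 4 together, over a range of -0.109 to 0.038. The number of genes called with LN-LEC above LN-BEC was 1, and rose to 2 with DESeq2, with limma-voom and with an FPKM of at least 1 as the filter, where Adm was added (adjusted p = 0.00558, 0.0171 and 0.0495); over fits without single libraries it was 1 to 2, the higher value coming without D-LEC replicate 3 (Adm adjusted p = 0.0392). Over all alternatives the adjusted p of Adm in this comparison ran from 0.00558 to 0.136, that of Ramp2 between LN-LEC and D-LEC from 0.0248 to 0.211, and that of Ednrb between LN-LEC and D-LEC from 0.00508 to 0.0904. The cause was not tested. The shift of each gene's log2 fold change had a median over genes of at most 0.023 in size under any alternative. The order of the members per length did not change with fragments per kilobase over size factors. No paired analysis was possible because the labels carry no replicate numbers that pair libraries across populations. Depth limited Apln and Aplnr in D-LEC, with 13 and 46 fragments in all, and Apln in LN-LEC, with 80.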

Other observations

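The receptors of these peptides act through heterotrimeric G proteins, cyclic nucleotides and nitric oxide, and 24 genes of that machinery were read as a list. All 24 were tested. LN-LEC against D-LEC gave 9 higher and 8 lower, LN-LEC against LN-BEC gave 8 and 9, and D-LEC against LN-BEC gave 10 and 9, with medians near 0 (-0.04, 0.18 and 0.04 on the log2 scale). Over all tested genes 45.7%, 38.2% and 48.0% were called in these comparisons. Some genes of cyclic AMP signalling were highest in LN-BEC. Rapgef4 and Rapgef3, the EPAC exchange factors, had 1573 ± 259 and 1815 ± 23.8 normalized counts in LN-BEC (SD, n = 3) against 18.0 ± 4.7 and 301 ± 25.5 in LN-LEC (SD, n = 4) and 33.4 ± 7.5 and 174 ± 14.6 in D-LEC (SD, n = 3), with edgeR adjusted p of 2.82e-11 and 1.85e-10 for LN-LEC against LN-BEC. Adcy4, an endothelial adenylyl cyclase, reached its highest level there too, at 10195 ± 842 (SD, n = 3). Other cyclase genes of the list went the other way. Adcy6, Adcy7 and Adcy9 had means of 775, 333 and 173 in LN-LEC against 587, 172 and 92.6 in LN-BEC. Their edgeR adjusted p values were 0.00491, 0.0106 and 0.00377, and Adcy3 was not called between these populations.

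D-LEC stood out in other parts of the same machinery. Gnas, the stimulatory G protein subunit that couples CALCRL to cyclic AMP, had 45612 ± 8433 normalized counts in D-LEC (SD, n = 3) against 15039 ± 1319 in LN-LEC (SD, n = 4), and the phosphodiesterase gene Pde3b had 1490.4 ± 116 (SD, n = 3) against 168 ± 15.4 (SD, n = 4). Gucy1b3 and Gucy1a3, the subunits of the nitric oxide receptor, had 2450.3 ± 317 and 10579 ± 3770 in D-LEC (SD, n = 3) against 106 ± 23.7 and 2256 ± 548 in LN-LEC (SD, n = 4), with edgeR adjusted p of 3.59e-10 and 0.000113. Both subunits are also known from smooth muscle and pericytes, whose 10 markers (shared with fibroblasts) summed to 2045 to 4521 normalized counts in D-LEC and 4483 to 8282 in LN-LEC; their part was not tested. Arrb2, a receptor-desensitising arrestin, was instead highest in LN-LEC, at 2687 ± 232 (SD, n = 4) against 638 ± 108 in LN-BEC and 990.2 ± 138 in D-LEC (SD, n = 3).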
